A study of Mus musculus with 6 samples.

Results

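The 41 intronless transfer RNA (tRNA) genes of mouse chromosome 3 were taken as every chromosome 3 locus of the deposited tRNA table whose annotation carries no intron flag, out of 433 tRNA loci in all. The other 3 tRNA loci of the chromosome carry an intron and were left out. The data are RNA-seq of epididymal white adipose tissue (eWAT) from male mice aged 22 to 24 weeks of the strain C57BL/6 (C57Bl6/J in the description of the wild type), kept on breeder chow and fasted overnight before harvest. One group held 3 Maf1-/- mice, a whole-body knockout made in embryonic stem cells, and the other held 3 wild-type mice. The RNA was total RNA treated to remove ribosomal RNA, and each mouse gave 1 library.

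MAF1 is a repressor of RNA polymerase III (Pol III), the enzyme that makes tRNAs and other short RNAs. Pol III reads tRNA genes from promoter elements inside the gene, the A box and the B box, which bind the factor TFIIIC, and it stops at a run of T after the gene. The first product is a precursor with a short leader before the tRNA and a trailer after it. RNase P removes the leader and RNase Z removes the trailer, and the mature tRNA that remains is stable, whereas the precursor is short-lived.

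Each locus has 2 scores in each library, one for precursor-only tags and one for mature tags. A score is a number of sequence tags scaled by the authors to a common library size, so that 1 tag was worth 0.995, 1.69 and 0.931 in the Maf1-/- libraries and 1.01, 0.763 and 0.967 in the wild-type libraries. Many scores are not whole numbers of tags, and the rule by which the authors divided tags was not found in the sources. The uniquely mapped gene reads behind these factors numbered 7207476 to 13088316 in Maf1-/- libraries and 12010807 to 15971900 in wild-type libraries.

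Of the 41 genes, 27 lie in 1 block, chr3:96115177-96305441 on the mm9 build, and 14 are scattered over the rest of the chromosome. They carry 17 anticodons for 12 isotypes, with initiator methionine counted apart, and 22 lie on the plus strand against 19 on the minus strand. In the GENCODE annotation of that build 34 are intergenic and 7 lie in an intron of another gene. Among these, n-Tn11 and n-Th2 lie in introns of BC107364 on its opposite strand. n-Tr3 lies in an intron of 1700064H15Rik, and n-Tg14 lies in an intron of Trim2, which encodes a ubiquitin ligase, each on the same strand as its host gene. The other 3, n-Tg5, n-Tg4 and n-Te20, lie in introns of long noncoding RNAs.

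The 41 genes have 29 distinct sequences, so that mature tags often cannot be placed at 1 locus. In 27 genes the sequence is shared with at least 1 other tRNA locus of the genome, and in 19 with another intronless gene of the chromosome. The asparagine (Asn) genes with anticodon GTT show this best, because 4 of them have the same 74 bases, with flanks that differ between n-Tn10, n-Tn11 and n-Tn12. They are printed from the mm9 genome in transcript direction, with the gene in lower case. Capitals mark 20 bases before the gene and, after it, the bases up to the end of the first run of 4 T, or 40 bases where no such run came sooner.

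n-Tn11, chr3:96255348-96255421, plus strand: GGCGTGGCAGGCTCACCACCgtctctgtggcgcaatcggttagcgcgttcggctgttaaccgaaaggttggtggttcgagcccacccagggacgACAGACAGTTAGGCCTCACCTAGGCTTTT
n-Tn10, chr3:96206141-96206214, plus strand: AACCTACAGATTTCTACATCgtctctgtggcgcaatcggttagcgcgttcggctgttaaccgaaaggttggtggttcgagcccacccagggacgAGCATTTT
n-Tn12, chr3:96301704-96301777, plus strand: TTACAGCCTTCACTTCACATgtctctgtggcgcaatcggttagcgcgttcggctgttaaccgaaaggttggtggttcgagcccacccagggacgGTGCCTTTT
n-Tn5, chr3:96138538-96138611, minus strand: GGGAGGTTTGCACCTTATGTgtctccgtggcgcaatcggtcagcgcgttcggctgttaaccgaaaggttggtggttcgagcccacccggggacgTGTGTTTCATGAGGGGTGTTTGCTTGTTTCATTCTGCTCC
n-Tn1, chr3:96138894-96138967, plus strand: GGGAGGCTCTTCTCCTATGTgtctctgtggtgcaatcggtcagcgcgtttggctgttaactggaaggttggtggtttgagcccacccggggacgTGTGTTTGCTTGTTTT

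Counted from the first base of the gene, and with n-Tn11 as the reference, n-Tn5 carries T6C, T21C and A68G. n-Tn1, which lies 282 bases from n-Tn5, carries C11T, T21C, C30T, C41T, A43G, C57T and A68G. n-Tn13 has the gene sequence of n-Tn11 and n-Tn4 carries C17T and G58A.

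The histidine (His) genes are shown for the same reason. The glycine (Gly) genes with anticodon CCC are shown as genes that differ in the gene sequence itself. n-Tr3 is shown as the 1 gene outside the block whose precursor passed the test.

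n-Tg4, chr3:96186834-96186904, plus strand: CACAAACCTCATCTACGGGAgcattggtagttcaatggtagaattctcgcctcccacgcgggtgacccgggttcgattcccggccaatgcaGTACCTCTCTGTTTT
n-Tg6, chr3:96227956-96228026, minus strand: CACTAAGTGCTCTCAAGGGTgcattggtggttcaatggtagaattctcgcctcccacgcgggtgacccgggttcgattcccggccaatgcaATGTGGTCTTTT
n-Tg2, chr3:96115177-96115247, plus strand: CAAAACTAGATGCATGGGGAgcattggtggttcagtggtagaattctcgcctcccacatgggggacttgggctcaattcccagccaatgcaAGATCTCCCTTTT
n-Th7, chr3:96256418-96256489, plus strand: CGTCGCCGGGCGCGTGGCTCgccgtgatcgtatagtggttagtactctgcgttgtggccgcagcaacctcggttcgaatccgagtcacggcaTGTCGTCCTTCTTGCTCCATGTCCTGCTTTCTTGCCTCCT
n-Th8, chr3:96304289-96304360, minus strand: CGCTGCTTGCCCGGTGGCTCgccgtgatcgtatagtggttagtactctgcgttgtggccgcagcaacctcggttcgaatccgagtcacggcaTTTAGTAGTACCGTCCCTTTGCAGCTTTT
n-Tr3, chr3:19527959-19528031, minus strand: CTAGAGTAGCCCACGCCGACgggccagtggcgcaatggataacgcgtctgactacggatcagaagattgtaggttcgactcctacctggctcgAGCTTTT

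n-Tg6 differs from n-Tg4 and n-Tg5 by A9G alone, whereas n-Tg2 differs from them at 10 positions. The His genes n-Th6, n-Th7, n-Th8 and n-Th9 have the same 72 bases. The B box was searched as GTTCNANNC on the gene strand and was found in 34 of the 41 genes (82.9%), against 89.4% of all 433 loci. The 7 genes without this string were n-Tk1, n-Ta14, n-Tl13, n-Tv9, n-Tm11, n-Tg2 and n-Tn1, and 4 of them had a mean precursor score below 1. A run of 4 T began within 40 bases after the gene in 37 of 41 genes, against 86.1% of all loci, at a median of 9 bases. n-Th7 and n-Th9 had none within 100 bases.

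Precursor scores of the chromosome 3 genes were higher in Maf1-/- eWAT. Summed over the 41 genes they came to 1034, 453 and 1710 in Maf1-/- libraries, against 94.4, 101 and 199 in wild-type libraries. All Maf1-/- sums thus lay above all wild-type sums, and the mean sum was 8.11 times higher. The genes outside this set summed to 6814, 5259 and 14748 in Maf1-/- libraries and to 1706, 2299 and 4016 in wild-type libraries, a ratio of 3.34. As a share of the precursor score of all tRNA loci, the 41 genes held 13.2, 7.93 and 10.4% in Maf1-/- libraries and 5.24, 4.23 and 4.71% in wild-type libraries. The groups did not overlap in this share. Without n-Tn11 and n-Tn13, the 2 genes with the largest change, the share was 8.51, 5.78 and 8.23% in Maf1-/- libraries and 5.08, 4.11 and 4.50% in wild-type libraries, still without overlap.

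Mature scores differed less, and their sums overlapped between the genotypes. They summed to 656, 832 and 1635 in Maf1-/- libraries, against 319, 419 and 1680 in wild-type libraries, so the highest sum belonged to a wild-type library. The 41 genes held 7.16, 8.65 and 7.39% of the mature score of all loci in Maf1-/- libraries and 6.86, 7.10 and 7.42% in wild-type libraries. These shares overlapped.

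**Figure D1:**
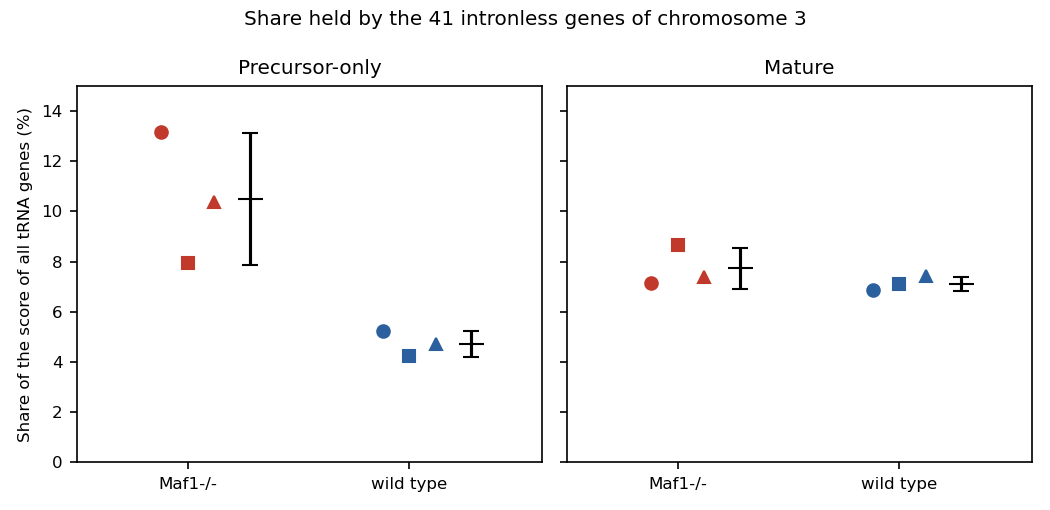
Share of the score of all 433 tRNA loci held by the 41 intronless genes of chromosome 3, in percent, for precursor-only scores (left) and mature scores (right). Each symbol is 1 library, and the bars beside them give the mean and SD of 3 libraries. The precursor share averaged 10.5 ± 2.63% in Maf1-/- and 4.73 ± 0.509% in wild-type libraries, and the mature share averaged 7.73 ± 0.803% in Maf1-/- and 7.12 ± 0.282% in wild-type libraries.

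Locus by locus, the genotypes were compared with limma on log2(score + 1) over every tRNA locus with a mean score of at least 1, with Benjamini-Hochberg adjustment over all loci tested and a threshold of 0.05. Of the 41 genes, 35 passed the minimum for precursors, and 17 of these were called higher in Maf1-/- and 0 lower. Over all 276 loci tested, 24.6% were called higher. The precursor difference (Maf1-/- minus wild type, log2) had a median of 2.29 over the 35 genes and of 1.57 over all loci tested. All Maf1-/- libraries lay above all wild-type libraries in 22 of the 35 genes, against 39.5% of all loci tested. Of the 35 genes, 14 had a wild-type mean below 1 and so passed the minimum through the Maf1-/- libraries, and these include 7 of the 17 called genes. The other 10 called genes had a wild-type mean of at least 1. The Maf1-/- library of replicate 3 was the highest of the 6 in 27 of the 35 genes.

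**Figure D2:**
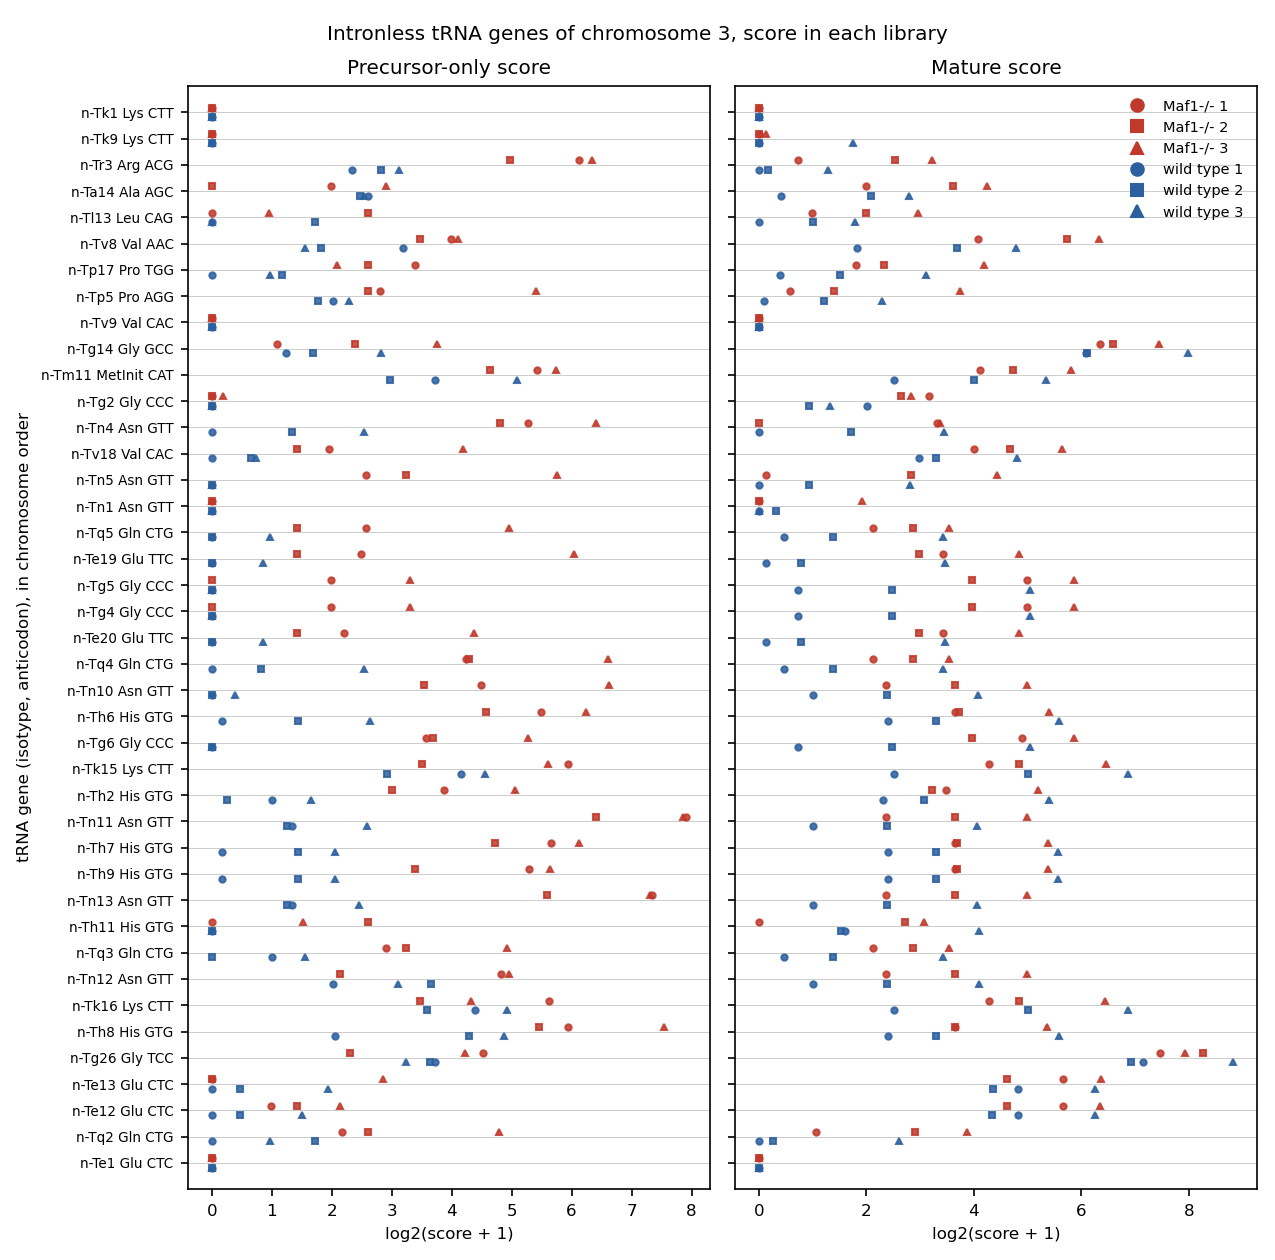
Precursor-only (left) and mature (right) scores of the 41 genes in each library, as log2(score + 1), in chromosome order. Red symbols are the 3 Maf1-/- libraries and blue symbols the 3 wild-type libraries, with 1 symbol shape for each replicate number. Red and blue symbols stand apart in 22 of the 35 genes tested for precursors and in 1 of the 36 tested for mature tags.

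Asn tRNA genes showed the largest differences. n-Tn11 had precursor scores of 239.37, 83.28 and 229.5 in Maf1-/- libraries, against 1.52, 1.39 and 4.98 in wild-type libraries. It was the highest of the 41 genes in every Maf1-/- library and low in every wild-type library. Its mean was 70.0 times higher in Maf1-/-, and the log2 difference was 5.66 ± 0.98 (SE; limma adjusted p = 2.37e-06). n-Tn13 had 160.74, 46.91 and 157.8 in Maf1-/- libraries, against 1.52, 1.39 and 4.5 in wild-type libraries (log2 difference 5.06, limma adjusted p = 6.22e-05). These 2 genes are inverted copies of one another with identical flanks, so that a tag of their common sequence cannot be placed at 1 of them and they are not independent. n-Tn10 had 21.39, 10.56 and 97.26 in Maf1-/- libraries, against 0, 0 and 0.31 in wild-type libraries (4.75, limma adjusted p = 1.34e-04). The wild-type value came from less than 1 tag, so no fold is given.

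n-Tn4 had 37.81, 27.05 and 83.81 in Maf1-/- libraries, against 0, 1.52 and 4.83 in wild-type libraries, a log2 difference of 4.21 (limma adjusted p = 0.00101). n-Tn5 had 4.97, 8.45 and 53.08 in Maf1-/- libraries, whereas all 3 wild-type libraries were at 0. Against a floor of 3 tags over the wild-type group, its mean was at least 24.6-fold higher in Maf1-/- (limma adjusted p = 0.00120). n-Tn12 had 27.36, 3.38 and 30.03 in Maf1-/- libraries, against 3.04, 11.63 and 7.64 in wild-type libraries. Its groups overlapped and it did not pass the test (log2 difference 1.04, 95% interval -0.95 to 3.03, limma adjusted p = 0.418). Thus n-Tn10, n-Tn11 and n-Tn12, which encode the same 74 bases, had wild-type means of 0.103, 2.63 and 7.44 and Maf1-/- means of 43.1, 184 and 20.3. n-Tn1 had no precursor tag in any library.

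Of the 7 Asn genes of the chromosome, 6 were tested and 5 called. Their summed precursor score averaged 441 ± 240 in Maf1-/- and 14.8 ± 8.15 in wild-type libraries (SD, n = 3 each), a ratio of 29.9. Of the Asn GTT genes on other chromosomes, 0 of 5 tested were called, with a median difference of 1.19. The difference between chromosome 3 and the other chromosomes was not tested, here and for the other anticodons.

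Among the 6 His GTG genes 5 were called. n-Th7 had 49.54, 25.53 and 68.45 in Maf1-/- libraries, against 0.12, 1.71 and 3.13 in wild-type libraries (log2 difference 4.29, limma adjusted p = 8.87e-04). n-Th6 had 44.11, 22.74 and 74.94 in Maf1-/- libraries, against 0.12, 1.71 and 5.19 in wild-type libraries (4.03, limma adjusted p = 0.00178). n-Th9, the inverted copy of n-Th7, had 38.09, 9.47 and 48.9 in Maf1-/- libraries, against 0.12, 1.71 and 3.13 in wild-type libraries (3.56, limma adjusted p = 0.00546). The 3 genes moved by similar amounts, and n-Th7 and n-Th9 had the same wild-type scores and have matching flanks. n-Th8 was the most abundant His precursor of the chromosome, with 60.16, 42.71 and 185.53 in Maf1-/- libraries, against 3.16, 18.5 and 28.38 in wild-type libraries. It was called with a smaller difference of 2.57 (limma adjusted p = 0.0316). n-Th2, which differs from the common His sequence by T16G, was also called, with 13.56, 7 and 32.24 in Maf1-/- libraries against 1.01, 0.19 and 2.15 in wild-type libraries (limma adjusted p = 0.0160). n-Th11 had 0, 5.07 and 1.86 in Maf1-/- libraries, whereas all wild-type libraries were at 0, and it was not called (limma adjusted p = 0.215). On other chromosomes 4 of 4 tested His genes were called, with a median difference of 2.04.

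The glutamine (Gln) CTG genes were called in 3 of 4 cases. n-Tq4 had 17.91, 18.6 and 96.53 in Maf1-/- libraries, against 0, 0.76 and 4.83 in wild-type libraries (log2 difference 3.93, limma adjusted p = 0.00203). n-Tq5, the lowest of the 4 by its mean over all 6 libraries, had 4.97, 1.69 and 30.1 in Maf1-/- libraries, against 0, 0 and 0.96 in wild-type libraries (2.66, limma adjusted p = 0.0239). n-Tq3 was called as well (2.84, limma adjusted p = 0.0218). n-Tq2 lies outside the block and had 3.48, 5.07 and 26.68 in Maf1-/- libraries, against 0, 2.28 and 0.96 in wild-type libraries. Its groups did not overlap, but it missed the threshold (2.29, limma adjusted p = 0.0608).

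The glutamate (Glu) genes have the anticodons TTC and CTC. Both TTC genes, n-Te19 and n-Te20, were called, with differences of 3.03 and 2.38 (limma adjusted p = 0.0119 and 0.0424). They are inverted copies with matching flanks and equal precursor scores in 4 libraries, so they are not independent. In n-Te19 the 64.76 of 1 Maf1-/- library stood far above the other two, at 4.58 and 1.69, while wild-type libraries had 0, 0 and 0.80. Neither tested CTC gene was called. n-Te13 had 0, 0 and 6.2 in Maf1-/- libraries, against 0, 0.38 and 2.81 in wild-type libraries, and n-Te12 had 0.99, 1.69 and 3.4 in Maf1-/- libraries, against 0, 0.38 and 1.84 in wild-type libraries. Their mature scores were many times higher than these, and their sequence is shared by 9 loci. On other chromosomes 0 of 6 tested TTC genes were called, with a median difference of 0.80. For CTC 0 of 7 were called there, with a median of 1.51.

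Of the Gly CCC genes only n-Tg6 was called. It had 10.94, 11.83 and 37.55 in Maf1-/- libraries, whereas wild-type libraries were all at 0, which makes its mean at least 22.3-fold higher in Maf1-/- (limma adjusted p = 6.18e-04). The inverted copies n-Tg4 and n-Tg5 had identical scores of 2.98, 0 and 8.84 in Maf1-/- libraries and 0 in all wild-type libraries, and were not called (limma adjusted p = 0.122). n-Tg2 had precursor tags in 1 Maf1-/- library alone, with a score of 0.14.

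The lysine (Lys) CTT genes were already well represented in wild type. n-Tk15 had 60.14, 10.41 and 47.78 in Maf1-/- libraries, against 16.89, 6.58 and 22.38 in wild-type libraries, and n-Tk16 had 48.52, 10.14 and 18.91 in Maf1-/- libraries, against 19.94, 11.03 and 29.47 in wild-type libraries. The groups overlapped in both genes, and neither was called (limma adjusted p = 0.364 and 0.900). The interval of the difference ran from -0.79 to 3.07 for n-Tk15 and from -1.76 to 2.11 for n-Tk16, so sizeable changes were not detectable here. n-Tk1 and n-Tk9, near the start of the chromosome, had no precursor tag in any library.

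The differences also varied along the block. In the block 16 of 25 tested genes were called, with a median difference of 2.84, against 1 of 10 tested genes elsewhere on the chromosome, with a median of 1.46. The 5 genes at the far end of the block, 187 to 190 kb from its first gene, are n-Tn12, n-Tk16, n-Th8, n-Tg26 and n-Te13, and only n-Th8 among them was called. This set was chosen after its values were seen. In wild-type libraries these 5 genes held 63.2, 75.1 and 55.9% of the block's precursor score, and in Maf1-/- libraries 17.8, 16.6 and 17.6%. The other 22 genes of the block, of which 15 of 20 tested were called, held the rest. n-Tg26, with anticodon TCC, had 21.89, 3.94 and 17.69 in Maf1-/- libraries, against 12.17, 11.44 and 8.42 in wild-type libraries (log2 difference 0.15, limma adjusted p = 0.911).

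**Figure D3:**
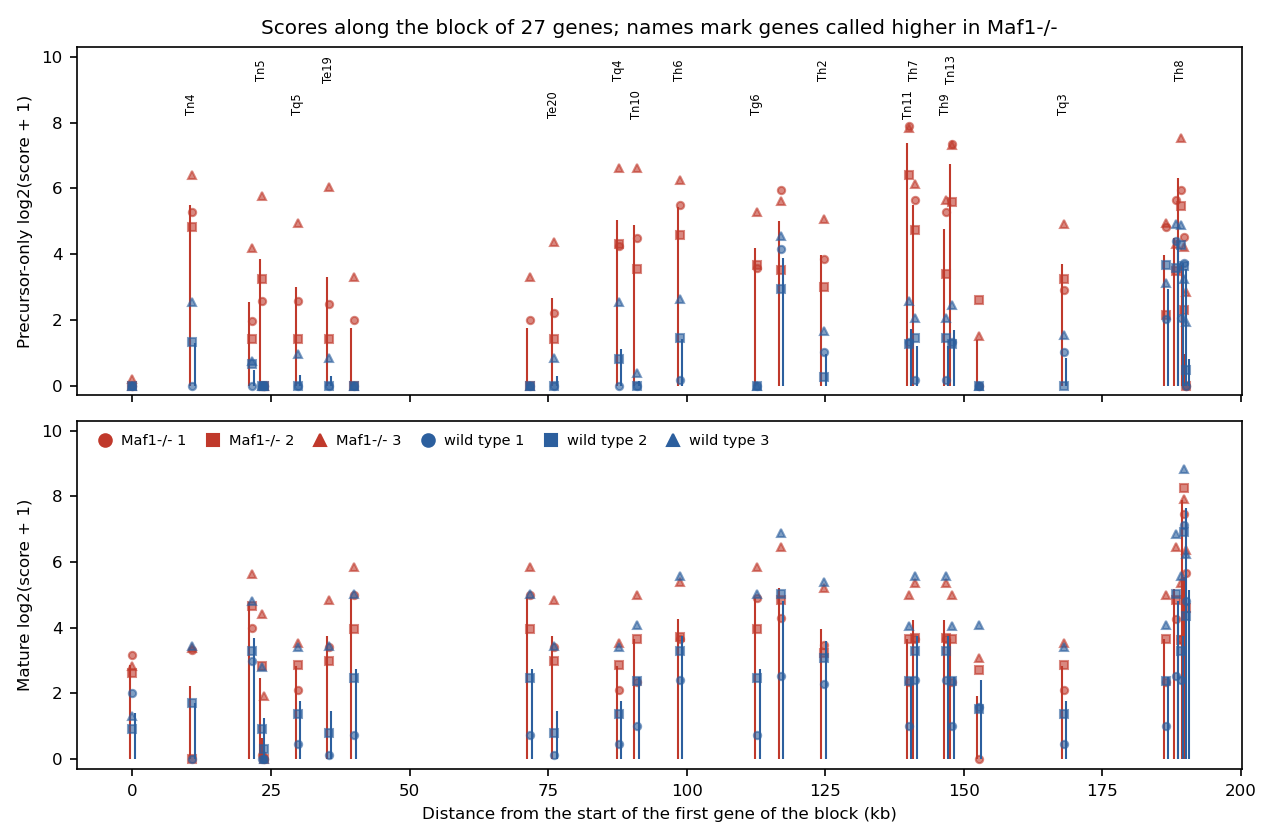
Precursor-only (top) and mature (bottom) scores of the 27 block genes, as log2(score + 1), against the distance in kb from the start of the first gene. Symbols are libraries, red for Maf1-/- and blue for wild type, and vertical lines reach the mean of 3 libraries on this scale. The 16 named genes were called higher in Maf1-/- for precursors, and at the far end, from 187 kb on, the 2 genotypes overlap for all but n-Th8.

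Part of the block is repeated in mirror order. n-Tn11 and n-Th7 lie 996 bases apart on the plus strand, and n-Th9 and n-Tn13 lie 996 bases apart on the minus strand. The sequences of n-Tn11 and n-Tn13 are the same for 601 bases before and 2983 bases after the gene, and those of n-Th7 and n-Th9 for 1671 and 1915 bases. n-Te19 and n-Te20 match for 1023 bases before and 584 after, and n-Tg5 and n-Tg4 for at least 3000 before and 573 after. Within these 4 pairs the precursor scores were equal in 2, 3, 4 and 6 of the 6 libraries, and the mature scores were equal in all 6 libraries in every pair. In the other libraries the precursor scores of a pair differed although the compared sequence is the same.

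Among the genes outside the block, n-Tr3, an arginine (Arg) ACG gene, was the 1 that was called. It had 68.66, 30.43 and 80.08 in Maf1-/- libraries, against 4.05, 6.1 and 7.73 in wild-type libraries. The lowest Maf1-/- score thus exceeded the highest wild-type score, and the mean was 10.02 times higher (log2 difference 3.05 ± 0.99 SE, limma adjusted p = 0.0160). n-Ta14, an alanine (Ala) AGC gene 963 bases away, had 2.98, 0 and 6.51 in Maf1-/- libraries, against 5.07, 4.57 and 4.83 in wild-type libraries. It was the only tested gene with a negative difference (-0.91, limma adjusted p = 0.450), and its groups overlapped.

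n-Tm11, an initiator methionine gene, had 41.79, 23.94 and 52.15 in Maf1-/- libraries, against 12.17, 6.86 and 33.02 in wild-type libraries (log2 difference 1.34, limma adjusted p = 0.279). n-Tv8, a valine (Val) AAC gene, had 14.92, 10.14 and 16.24 in Maf1-/- libraries, against 8.11, 2.54 and 1.93 in wild-type libraries (1.67, limma adjusted p = 0.192). The groups of n-Tv8 did not overlap, whereas those of n-Tm11 did. The proline (Pro) genes n-Tp17 and n-Tp5 lie 981 bases apart. n-Tp17 had 9.45, 5.07 and 3.25 in Maf1-/- libraries, against 0, 1.26 and 0.96 in wild-type libraries (limma adjusted p = 0.0965). n-Tp5 had 5.97, 5.07 and 41.28 in Maf1-/- libraries, against 3.04, 2.41 and 3.86 in wild-type libraries (limma adjusted p = 0.214). In both Pro genes the genotypes stood apart without passing the test. n-Tg14, with anticodon GCC, had 1.13, 4.22 and 12.44 in Maf1-/- libraries, against 1.36, 2.21 and 6.09 in wild-type libraries (limma adjusted p = 0.692). n-Tl13, a leucine (Leu) CAG gene, had 0, 5.07 and 0.93 in Maf1-/- libraries, against 0, 2.28 and 0 in wild-type libraries (limma adjusted p = 0.585). Both overlapped. The remaining block gene that was tested, n-Tv18, had 2.89, 1.69 and 17.3 in Maf1-/- libraries, against 0, 0.57 and 0.67 in wild-type libraries (limma adjusted p = 0.0827). The 5 genes at 0 in all 6 libraries were n-Tk1, n-Tk9, n-Tv9, n-Tn1 and n-Te1, and a count of 0 allows up to 3 tags a gene over each group.

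By their wild-type level, 2 of the 7 tested genes with a wild-type mean of at least 5 were called, 8 of 14 with a mean of 1 to 5, and 7 of 14 with a lower mean. The wild-type values enter the difference itself, so this is a description.

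Mature scores were tested for 36 of the 41 genes, and limma called 0 at the adjusted threshold, as it did for all 312 loci tested (0%). At an unadjusted p below 0.05 there were 2 of the 36 genes. An alternative fit that adjusted for the replicate number called 20 of the 36 genes and 153 of the 312 loci higher. The mature difference was above 0 in 35 of the 36 genes, with a median of 1.08 over these genes and of 1.07 over all loci tested. The wild-type library of replicate 3 was the highest wild-type library for 36 of the 38 genes with a mature tag, and a wild-type library was the highest of all 6 for 11 of the genes tested. For n-Tn11 the mature score was 4.15, 11.59 and 30.82 in Maf1-/- libraries, against 1.02, 4.23 and 15.72 in wild-type libraries (log2 difference 1.18, 95% interval -1.12 to 3.49). For n-Th7 it was 11.51, 11.9 and 40.46 in Maf1-/- libraries, against 4.3, 8.83 and 46.61 in wild-type libraries (0.48, interval -1.81 to 2.76). These intervals include both no change and changes of several fold.

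n-Tg2 was the 1 gene whose mature scores did not overlap between genotypes, with 7.96, 5.22 and 6.07 in Maf1-/- libraries, against 3.04, 0.90 and 1.49 in wild-type libraries (log2 difference 1.46, limma adjusted p = 0.635). Non-overlap of this kind occurred in 13.1% of all loci tested. This gene has no B box string and next to no precursor score. Summed by anticodon, the mature score was 2.26 times higher in Maf1-/- for Asn, 2.03 times for Gln, 1.04 times for His and 0.87 times for Lys, where the precursor ratios were 29.9, 19.6, 10.4 and 1.84. Some other anticodons had higher mature ratios. For Glu TTC it was 4.10, where the precursor sums averaged 32.0 in Maf1-/- and 0.533 in wild-type libraries, too low for a ratio. The mature ratio was 3.61 for Val AAC with a precursor ratio of 3.28, and 3.38 for Ala AGC with a precursor ratio of 0.656. Each of these last ratios rests on 1 gene, n-Tv8 for Val AAC and n-Ta14 for Ala AGC. On other chromosomes 4 of 12 tested Ala AGC precursors were called, with a median difference of 1.88. For Val AAC 0 of 4 were called there, with a median of 1.23.

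The precursor and mature differences were then set against one another within each library. Of the 35 genes with both scores tested, the precursor difference lay above the mature difference in 26, and 5 passed the adjusted threshold, against 1.94% of the 258 loci tested, which are the same 5 genes. The genes that passed were n-Tn11 (4.48, limma adjusted p = 0.0241), n-Tn13 (3.88), n-Th7 (3.81), n-Tn4 (3.69) and n-Th6 (3.53), the last 4 with a limma adjusted p of 0.0299. The sequence of n-Tn11 and n-Tn13 occurs at 9 loci of the genome and that of n-Th7 and n-Th6 at 8. Copies on chromosome 3 had the same or nearly the same mature scores. For these genes a precursor score of 1 locus was thus set against a mature score shared by copies, and the 5 calls are not independent. The limma unadjusted p was below 0.05 in 12 of the 35 genes. Among the 12 was n-Ta14, whose difference was negative (-2.43, limma unadjusted p = 0.0265). The same count was not made over all loci. There were 0 calls without KO replicate 2, WT replicate 2 or WT replicate 3, 1 without KO replicate 1 or 3, and 6 without WT replicate 1. Over all loci tested there were 7 calls without WT replicate 1 and the same numbers as here without each other library. Over the 41 genes the ratio of precursor to mature score was 1.58, 0.545 and 1.05 in Maf1-/- libraries and 0.296, 0.242 and 0.118 in wild-type libraries.

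**Figure D4:**
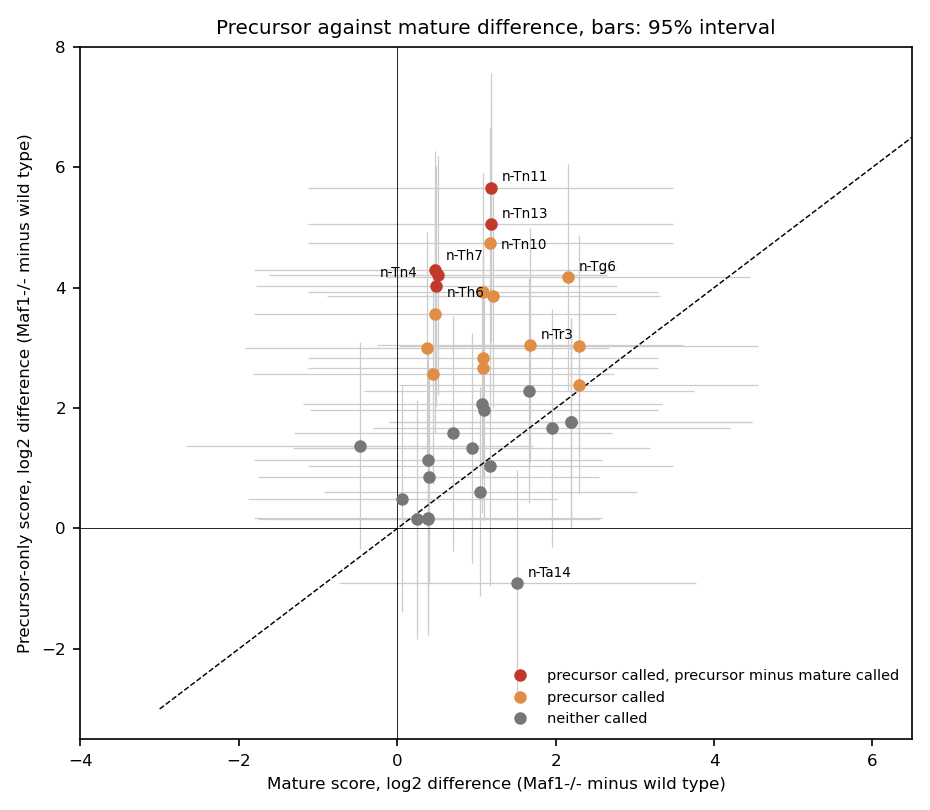
Log2 difference (Maf1-/- minus wild type) of the precursor-only score against that of the mature score for the 35 genes tested in both, with 95% intervals as grey bars and equality as the dashed line. Red points passed the test of precursor minus mature, orange points passed the precursor test alone, and grey points passed neither. n-Tn11 lies highest at 5.66 on the precursor axis and 1.18 on the mature axis.

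The number of precursor calls rested on single libraries. It was 7 without WT replicate 1, 10 without WT replicate 2, 10 without KO replicate 3, and between 14 and 18 without any of the other libraries. Over all loci tested the calls were 14 of 281, 25 of 283 and 27 of 251 without these named libraries in turn. Without each of the others they ran from 42 of 273 to 86 of 277. n-Tn11, n-Tn10, n-Tg6 and n-Tn5 were called under each of the 19 alternatives run, and the other 13 genes lost their call under at least 1. In the sums per anticodon a gene took the call of its sum, so it was not tested alone. The same holds for n-Tn11 and n-Tn10 in the sums over identical genes, where they share 1 test. However, n-Tn10, n-Tg6 and n-Tn5 had wild-type means below 1 and passed the minimum only through the Maf1-/- libraries. Scaling mattered for the direction of the genes that were not called. The difference was above 0 in 34 of 35 genes as deposited, and in 25 of 33 after TMM scaling of the scores, which lowered the median of all loci to 0.30 and that of the chromosome 3 genes to 1.35.

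The gene counts of the same libraries were used to check the genotype and the tissue. Maf1 had 12.2, 12.1 and 22.9 CPM (gene reads scaled to library size) in Maf1-/- libraries, against 54.5, 70.1 and 67.6 CPM in wild-type libraries, without overlap. Its log2 fold change was -2.00 ± 0.28 (SE), which edgeR's quasi-likelihood test did not call over 16101 genes (adjusted p = 1.00) and DESeq2 did (adjusted p = 1.33e-05). edgeR called 0 genes (0%), with 302 at an unadjusted p below 0.05, whereas DESeq2 called 8 higher and 6 lower. Adipocyte markers summed to 15946 to 22150 CPM in Maf1-/- and 22512 to 24413 CPM in wild-type libraries, and all 8 were detected in each library. All Maf1-/- sums thus lay below all wild-type sums. Of the 8 markers, 1 had a log2 fold change above 0, with a median of -0.36, and 1 had an unadjusted p below 0.05, while edgeR called 0. Epididymal markers summed to 817, 9466 and 8509 CPM in Maf1-/- libraries and to 13.6, 6080 and 4645 CPM in wild-type libraries, so the Maf1-/- and the wild-type library of replicate 1 stood apart. Of the 8 markers, 4 were at 0 in this Maf1-/- library and 3 in this wild-type library, among them Lcn8, an epididymal lipocalin. Testis markers followed, with 0.653, 196 and 107 CPM in Maf1-/- libraries and 6.74, 904 and 114 CPM in wild-type libraries. Without these 2 libraries 4 precursors were called, with a median difference of 2.12. Smooth muscle markers summed to 1807, 4347 and 410 CPM in Maf1-/- libraries and 524, 408 and 513 CPM in wild-type libraries. All 5 of them had a log2 fold change above 0, with a median of 2.55, and 4 had an unadjusted p below 0.05, while edgeR called 0. Erythroid markers summed to 1380, 2869 and 829 CPM in Maf1-/- libraries and 2698, 5225 and 860 CPM in wild-type libraries, and macrophage markers to 417, 403 and 449 CPM in Maf1-/- libraries and 558, 396 and 540 CPM in wild-type libraries. The part of these other cells in the tRNA scores was not tested, and in bulk tissue fewer cells of a type and less RNA per cell cannot be told apart.

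Genes for the Pol III machinery and for pre-tRNA processing were read in the same table. Of 27 Pol III genes, which cover the enzyme and the factors TFIIIB and TFIIIC, edgeR called 0, with a median log2 fold change of 0.07 and 16 above 0. The smallest p belonged to Polr2f, a subunit shared by the nuclear polymerases, at 25.8, 34.5 and 27.5 CPM after TMM scaling in Maf1-/- libraries, against 19.0, 22.7 and 21.3 in wild-type libraries (log2 fold change 0.48, adjusted p = 1.00). Gtf3c6, a TFIIIC subunit, and Polr2k, another shared subunit, had log2 fold changes of 0.58 and -0.71. Of the 27, 1 had an unadjusted p below 0.05. Of 31 genes for precursor processing and modification, edgeR called 0 and 0 had an unadjusted p below 0.05, with a median of 0.10 and 22 above 0. Among them Pop4 and Pop5, which are RNase P subunits, had log2 fold changes of 0.38 and 0.78, and Ssb, which encodes the La protein that binds the end of Pol III precursors, had 0.27. DESeq2 also called 0 in both lists.

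Around the block, within 50 kb of its first and last gene, 5 of the 13 genes in the table were tested and edgeR and DESeq2 called 0. The median log2 fold change was 0.05, and 0 had an unadjusted p below 0.05. Hist2h4, which encodes histone H4, had a log2 fold change of 0.05, and its neighbours Hist2h3b and Hist2h2bb had 0.16 and -0.08.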

How the data were processed

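Directional RNA-seq libraries were made from ribosomal RNA-depleted total RNA with random-hexamer and oligo(dT) priming and PCR, without molecular identifiers. Per the labels, the authors filtered reads with CASAVA, aligned them with GSNAP to mm9 and counted uniquely mapped reads with HTSeq. The deposited tRNA scores are precursor-only and mature tags per locus that the authors scaled. The rule that separates them is not given in the sources used here. From the values, 38.3 to 59.8% of precursor scores and 3.99 to 12.3% of mature scores are whole tags (tolerance 0.01) of the mean library total over the library's own total. The deposited gene counts were used as estimated counts, whole in every gene row, and 2 rows that name no gene were dropped. Columns with the study's own comparisons (normalized counts, fold changes, calls) were not used.

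The 41 loci, the gene lists and the tests were chosen with earlier results of these data known. Scores were tested with limma 3.58.1 with an intensity trend on log2(score + 1), for loci whose score averaged 1 or more over the 6 libraries, and adjusted by Benjamini-Hochberg over all tRNA loci tested. Folds are on that scale unless given as ratios of means, and the pseudocount understates the change of low loci. Gene counts were tested with edgeR 4.0.16 (glmQLFit, TMM, filterByExpr) and DESeq2 1.42.0 in R 4.3.3. The methods were tested on simulated data. Sequences were read from the NCBIM37 (mm9) genome and gene positions from GENCODE. The loci with values in every library were the 10 called loci with the largest precursor change and no overlap. To these came the highest and the lowest of each anticodon with 3 or more genes, every tested locus outside the block, and those with a negative change. n-Tn12, n-Tg4, n-Tg5, n-Tg26, n-Tv18, n-Te19 and n-Th2 were added after their values were seen. n-Tq3 and n-Te20 were added in the same way, with a difference and an adjusted p alone. The mice were separate animals, and floors cover counting error only. Alternatives were another pseudocount, filter, scaling, tool or replicate block, sums per anticodon, and leaving out each library. Same-sequence sums, unscaled tags, TMM, the removal of both replicate 1 libraries and the block with mature scaling were chosen after seeing the data.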

Additional observations from a re-analysis of the deposited data

How the results depend on the processing

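The number of chromosome 3 precursors called higher in Maf1-/- was 17 as reported, with 68 of 276 over all loci tested. It was 17 and 16 at pseudocounts of 0.1 and 5, and 16 at a minimum mean of 5. Over all loci these gave 64 of 276, 58 of 276 and 69 of 181. Division by the gene count total (which scales the scores a second time) gave 20, division by the summed mature score 17 and sums over identical genes 20. Over all loci these gave 115 of 279, 67 of 276 and 38 of 147. The chromosome 3 count fell to 11 without the filter, 9 for unscaled tags, 10 after TMM and 4 without both replicate 1 libraries. Over all loci these gave 32 of 336, 17 of 272, 21 of 268 and 4 of 278 higher, and 3 lower after TMM. Leaving out 1 library gave 7 to 18 calls, against 14 of 281 to 86 of 277 over all loci. Of the 17, 16 or 17 remained called in the first group of settings, and the 11, 9, 10 and 4 calls of the second group were all among the 17. Sums per anticodon were taken over all tRNA loci with that anticodon, on any chromosome, so they did not test single chromosome 3 genes. Of the 50 sums tested 17 were called. The called sums covered 22 of the 41 genes, and 14 of these 22 were also called on their own as reported. None of the 17 differences changed sign in any alternative, and no precursor or mature score of the 41 genes was called lower.

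The replicate numbers were not taken to pair the samples, though these values do not settle it. Same-numbered libraries correlated at 0.27, -0.07 and 0.23 for precursors and 0.35, 0.12 and 0.09 for mature scores. Libraries with different numbers correlated at -0.36 to 0.23 for precursors and -0.48 to 0.42 for mature scores. With the replicate block limma called 18 precursors, 20 mature scores and 8 differences of precursor minus mature. Over all loci tested it called 104 of 276, 153 of 312 and 14 of 258. With the block and division by the summed mature score it called 18, 7 and 10 higher and 1 difference lower. Over all loci these came to 72 of 276, 68 of 307 and 23 of 254 higher, and 4 differences lower. Without the block limma called 0 of the 41 mature scores under every alternative run.

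Calls of precursor minus mature, 5 as reported, came to 0 at a pseudocount of 0.1 and without the filter, 8 at a minimum mean of 5, 1 for sums over identical genes, 2 without both replicate 1 libraries, and 0 to 6 without 1 library. Over all loci tested these settings gave 0, 0, 13 of 132, 1 of 129, 2 of 264 and 0 to 7 calls. After TMM 1 chromosome 3 gene was called lower, against 4 of 245 over all loci.

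Among the uncalled genes that the rule for named loci chose, the precursor difference changed sign in at least 1 setting in 6. After TMM, 25 of the 33 genes tested were above 0. For n-Te13 it was -0.38 at a pseudocount of 0.1, -0.53 after TMM, and -0.25 to 0.72 without 1 library. For n-Tk16 it was -0.35 after division by the summed mature score, with or without the replicate block, -0.15 for unscaled tags, -1.52 after TMM, -0.36 without both replicate 1 libraries, and -0.41 to 0.67 without 1 library. For n-Tk15, n-Tm11 and n-Tg14 it was -0.56, -0.36 and -0.89 after TMM, and for n-Tg14 -0.18 to 1.15 without 1 library. n-Ta14 was at 1.57 as part of its anticodon's sum. The mature difference of n-Th7 was -0.0023 after division by the summed mature score, with or without the block, -0.43 after TMM, and -0.20 to 1.38 without 1 library. The cause was not tested.

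Maf1 had a log2 fold change of -1.99 in DESeq2, which called it. Low scores limit the precision, since 5 to 10 of the 41 genes had no precursor tag in a Maf1-/- library and 12 to 23 had none in a wild-type library. Copies with the same sequence are not independent, and with 3 mice a genotype 1 library can decide a call.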
